A study of Mus musculus with 4 samples.

Results

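The 8 genes described here are effectors and targets of the transcriptional coactivators YAP and TAZ, out of 32479 genes listed in the count tables. They were taken by name and are Yap1 (YAP), Wwtr1 (TAZ), Tead1, Ccn1, Ccn2, Amotl2, Lats2 and Ajuba. All 8 were found and all 8 passed the filter on low counts in each of the 3 keratinocyte classes that were tested. Their levels were followed per mouse in single-cell RNA-seq (BD Rhapsody) of dorsal epidermis from female C57BL/6N mice at postnatal day 19. Both groups carried floxed CerS4 alleles (CerS4fl/fl). The 2 control mice (ctr) had no K14Cre, and the 2 CerS4epi-/- mice were K14Cre+, so that Cre under the keratin-14 promoter removed ceramide synthase 4 from basal keratinocytes and all cells that descend from them, that is, in hair follicles, sebaceous glands and the epidermis between them (interfollicular epidermis, IFE). Immune cells of the suspension come from other lineages, in which this Cre is not expected to act.

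YAP and TAZ carry no DNA-binding domain and reach their target genes by binding TEAD transcription factors. The Hippo kinases, with LATS1 and LATS2 as the last step, phosphorylate YAP and TAZ and keep them in the cytoplasm. Angiomotin family proteins such as AMOTL2 hold YAP and TAZ at junctions and actin, while LIM proteins such as AJUBA restrain LATS at junctions under tension. CCN1 (CYR61) and CCN2 (CTGF) are secreted matrix-associated proteins and textbook YAP/TAZ targets. LATS2, AMOTL2 and AJUBA are also targets themselves, and the first 2 close a negative feedback loop. In skin, nuclear YAP is known from basal progenitors and follicle cells, where it goes with proliferation and attachment to the basement membrane. These assays count RNA, and YAP and TAZ are regulated to a large part by their location in the cell, which was not measured.

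In the GRCm39 mouse genome the members are protein-coding genes spread over several chromosomes. Wwtr1 lies at chr3:57363067-57483331 and Ccn1 at chr3:145352720-145355738, both on the minus strand. On the minus strand are also Yap1 at chr9:7932000-8004661, Ajuba at chr14:54804787-54815027 and Lats2 at chr14:57926960-57995845. On the plus strand lie Tead1 at chr7:112278522-112506014, Amotl2 at chr9:102593836-102610617 and Ccn2 at chr10:24471333-24474900. The counts include reads in introns, so long genes such as Tead1 and Yap1 can gather counts from unspliced RNA, and levels are therefore compared between cells for a given gene and not between genes.

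The promoters of 3 members are printed because, of the 6 members with a promoter in the RefSeq table, these differ most in level between basal and suprabasal cells, Ccn1 and Ajuba being higher in basal and Amotl2 in suprabasal cells. Each run shows the 250 bases before and the 50 bases after a transcription start from RefSeq, 5′ to 3′ on the strand of the gene, with build GRCm38.p6 coordinates. Capitals mark the TEAD core motif GGAATG or its reverse complement CATTCC, searched on both strands.
Ccn1, chr3:145649936-145650235, minus strand: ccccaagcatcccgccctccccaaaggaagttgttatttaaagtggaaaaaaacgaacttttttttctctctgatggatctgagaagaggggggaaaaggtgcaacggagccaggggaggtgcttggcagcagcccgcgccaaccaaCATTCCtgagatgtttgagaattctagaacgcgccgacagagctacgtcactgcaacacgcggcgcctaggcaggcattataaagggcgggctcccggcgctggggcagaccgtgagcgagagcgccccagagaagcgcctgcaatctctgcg
Ajuba, chr14:54577612-54577911, minus strand: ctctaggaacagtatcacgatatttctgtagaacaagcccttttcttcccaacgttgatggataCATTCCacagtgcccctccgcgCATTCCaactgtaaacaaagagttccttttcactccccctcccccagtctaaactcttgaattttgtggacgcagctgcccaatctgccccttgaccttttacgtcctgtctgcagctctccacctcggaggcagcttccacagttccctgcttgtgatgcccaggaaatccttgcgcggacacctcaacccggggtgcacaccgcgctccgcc
Amotl2, chr9:102717554-102717853, plus strand: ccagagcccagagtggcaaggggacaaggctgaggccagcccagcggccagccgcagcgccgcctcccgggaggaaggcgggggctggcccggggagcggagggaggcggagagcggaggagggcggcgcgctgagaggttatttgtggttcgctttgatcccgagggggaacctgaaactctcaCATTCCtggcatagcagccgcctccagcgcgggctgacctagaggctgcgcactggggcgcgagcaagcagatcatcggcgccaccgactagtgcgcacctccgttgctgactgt
The motif stood 103 bases before the start in Ccn1, 186 and 164 bases before it in Ajuba and 65 bases before it in Amotl2, each time in the reverse orientation. Of the 8 members, 6 had a promoter in the RefSeq table (Ccn1, Ajuba, Amotl2, Yap1, Wwtr1 and Lats2), and each of these 6 held at least 1 such motif in at least 1 of its windows. In all, 14.7% of the 32851 promoters in the table hold it. A match of 6 letters is a description of the sequence and was not tied to binding.

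The 4 libraries held 39231945 to 53106317 counts, and 7567 to 9086 cells per mouse, 34150 in all, passed the thresholds of 1200 counts and 20% mitochondrial reads. Between libraries, 328 cell barcodes were shared, where independent draws would give about 493. Clusters were named from marker genes after the members had been held out of the clustering. This gave 15373 IFE basal-like, 12150 IFE suprabasal-like and 5817 hair follicle-like cells, besides 76 sebaceous gland-like, 457 T cell-like, 212 Langerhans cell-like and 65 unnamed cells. Krt14 averaged 6002 CPM (counts scaled to an equal total for each summed class of a mouse) in basal against 102.5 CPM in suprabasal sums, and Krt10 averaged 2723 and 24190 CPM. In follicle sums Krt17 averaged 11497 CPM (207 in basal) and Krt79 3644 CPM (51.4 in basal). Of the outer bulge markers, Postn (56.1 basal against 16.8 follicle CPM) and Dkk3 (15.4 against 11.5) were higher in basal sums and Lgr5 was about equal (13.3 and 14.6). Cers4 itself was rare in IFE basal-like cells (0.769 to 1.30 CPM over the 4 mice), which leaves no check of the deletion there. In hair follicle-like cells it was 4.92 and 8.93 CPM in the ctr mice (18 and 25 counts) and 1.964 and 2.99 CPM in the CerS4epi-/- mice (17 and 22 counts). In the sebaceous gland-like cells it stood at 2832 and 3968 CPM in the ctr mice and at 289 and 430 CPM in the CerS4epi-/- mice, the second ctr value resting on 2 cells. In T cell-like cells it was 76.1 to 120 CPM over the 4 mice.

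The coactivators were found in all 3 classes. Yap1 was highest in IFE basal-like cells, with 395 and 415 CPM in the ctr mice and 333 and 340 CPM in the CerS4epi-/- mice. In IFE suprabasal-like cells it stood at 257 and 263 CPM in ctr and 248 and 259 CPM in CerS4epi-/- mice, and in hair follicle-like cells at 243 and 263 CPM against 200 and 199 CPM. The 4 mice agreed on this order of the classes. Suprabasal cells held more RNA counts (a median of 5318 to 6907 per cell against 2714 to 3219 in basal cells), and in counts per cell the order of basal and suprabasal turned, with a log2 difference of -0.63 ± 0.14 (SD, n = 4 mice) where the CPM gave 0.52 ± 0.13. T cell-like cells, which should lack Yap1, showed a UMI in 0.699% to 7.58% of cells after each cell was thinned to 1200 counts, and basal cells in 30.7% to 38.0%.

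Wwtr1 differed between basal and suprabasal cells on some scales and not on others. Its values were 155, 143, 104 and 117 CPM in basal cells (ctr replicates 1 and 2, then CerS4epi-/- replicates 1 and 2), 143, 137, 140 and 136 CPM in suprabasal cells and 196, 149, 126 and 141 CPM in follicle cells. Basal and suprabasal cells differed by -0.11 ± 0.25 log2 (SD, n = 4), in opposite directions among the mice, and follicle cells were above basal cells in 4 of 4 mice by 0.23 ± 0.12. Counted per cell or with TMM scaling over the 12 sums, the suprabasal level was higher than the basal level in 4 of 4 mice (basal minus suprabasal -1.26 ± 0.24 per cell and -0.43 ± 0.24 with TMM).

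Tead1 encodes the DNA-binding partner among the members. It stood at 44.2, 37.2, 31.4 and 38.9 CPM in the basal class of the same 4 mice, in that order, against 160, 165, 184 and 192 CPM in the suprabasal class. In follicle cells it lay between them, at 125 and 97.5 CPM in the ctr mice but 48.5 and 49.8 CPM in the CerS4epi-/- mice. The basal level was below the suprabasal level by 2.22 log2 (SD 0.29, n = 4), and on every scale used the direction was the same in 4 of 4 mice. Most of this came from late differentiation. Cluster 2 (led by Lor, Wfdc21 and Serpina12), with 5.56% of all cells, held 44.9% of the Tead1 counts, and the early suprabasal cluster 0 (led by Krt1 and Krt10) had 13.1 to 20.3 CPM, less than any basal cluster but the Krt1-positive cluster 1, whose range (19.03 to 28.9 CPM) overlapped it.

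Among the secreted targets, Ccn1 marked the basal layer. Its level was 395, 347, 314 and 332 CPM in basal cells, 15.4, 10.9, 14.1 and 20.2 CPM in suprabasal cells and 27.9, 23.6, 25.3 and 23.5 CPM in follicle cells. The basal level exceeded the suprabasal level by 4.54 ± 0.40 log2 and the follicle level was below the basal level by 3.78 log2 (SD 0.11, n = 4). After thinning, a Ccn1 UMI was seen in 23.2% to 27.3% of basal cells (39.2% to 43.9% before thinning). It was seen in 1.65% to 2.38% of suprabasal and 1.84% to 2.55% of follicle cells, which is no more than in T cell-like cells (0.719% to 7.58%), so those levels cannot be told from free RNA. The cycling basal cluster 10 (Top2a, Ube2c) and the main basal cluster 5 (Krt5, Krt14) had the highest values, 431 to 549 CPM and 416 to 486 CPM, and clusters 1 and 3 lay lower at 117 to 158 and 187 to 220 CPM.

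Ccn2 behaved differently. Its levels were 5.64, 1.15, 15.8 and 16.6 CPM in basal cells, 0.469, 0.297, 0.996 and 0.694 CPM in suprabasal cells and 29.8, 20.7, 27.1 and 11.3 CPM in follicle cells. Basal cells exceeded suprabasal cells by 3.48 ± 1.12 log2 in 4 of 4 mice, and the follicle and basal levels did not differ beyond the spread (1.69 ± 2.03, higher in 3 of 4 mice). Most of its counts came from 3 small groups of cells. Clusters 3, 6 and 14 together held 34.4%, 38.7% and 9.97% of all its counts with 9.55%, 4.56% and 0.19% of the cells. These shares pool mice with 90 to 543 Ccn2 counts. Cluster 3 held 23.0% and 7.78% of them in the ctr mice and 34.8% and 49.5% in the CerS4epi-/- mice, and cluster 6 held 49.1% and 61.1% against 38.5% and 24.9%. Cluster 3 is a basal-like cluster led by Aldh3a1, Fst, Igfbp4, Sostdc1 and Apoe. It held 8 IFE basal markers above the detection limit, but 0 of them were among its 10 leading genes. Its basal score was 0.92, with the hair follicle-like list second at 0.16. Whether its cells lie between the follicles was not tested. Cluster 6 is a follicle-like cluster led by Krt6a, Cst6, Klk10, Sprr1a and Krt17. Cluster 14, 65 cells that no marker list named, was led by Tnc, Krt17, Krt24, Ccn2 and Pi15, with Col12a1, Dcn and Fst following, although Ccn2 had been held out of the clustering. In these 65 cells Ccn2 reached 1635, 285, 657 and 1132 CPM, from only 6 to 43 counts per mouse (95% Poisson interval 105 to 620 CPM for the lowest), and a UMI was seen in 33.3% to 64.3% of the cells. The main basal cluster 5 had 0.13 to 3.0 CPM. A cluster led by Tnc, Krt17, Ccn2 and Krt24 was found again with 67 cells at a finer resolution and with 61 cells without batch alignment, and no marker list named it there either.

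Of the fibroblast markers searched, Col1a1, Col3a1, Lum and Dpt were at 0 in cluster 14 in 4 of 4 mice and only Dcn, Col1a2 and Pdgfra gave counts, 2 or 3 of 7 markers per mouse with summed levels of 380 to 1035 CPM. All 5 endothelial and all 4 smooth muscle and pericyte markers were at 0 there. In the T cell-like and Langerhans cell-like cells of the 4 mice Ccn2 had 4 and 0 counts in all.

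The members that act on LATS or hold YAP at junctions were not alike. Amotl2 was higher in suprabasal than in basal cells, at 204, 190, 148 and 143 CPM against 65.3, 67.4, 49.9 and 48.9 CPM, a log2 difference of -1.56 ± 0.06 (SD, n = 4) for basal minus suprabasal. Follicle cells lay between, at 125, 125, 76.4 and 77.4 CPM. The outermost suprabasal cluster 11 (Lce1m, Lor, Crct1) had the highest values, 373 to 452 CPM. Ajuba ran the other way, with 151, 156, 135 and 145 CPM in basal cells, 30.0, 26.5, 30.7 and 32.0 CPM in suprabasal cells and 41.3, 49.7, 50.1 and 41.0 CPM in follicle cells. Lats2 was flat across the class sums only. It stood at 34.3, 32.6, 31.7 and 35.1 CPM in basal and 29.4, 29.1, 25.9 and 30.7 CPM in suprabasal cells. In follicle cells it stood at 42.6, 38.9, 24.03 and 30.0 CPM. Within the suprabasal class its cluster means were 17.1 CPM in the early cluster 0 and 23.7 CPM in cluster 9. They were 38.5 CPM in cluster 2 and 54.4 CPM in the outermost cluster 11, whose range over the mice did not overlap that of cluster 0. Basal cluster means ran from 24.8 CPM (cluster 1) to 43.6 CPM (cluster 3). The small basal excess of Lats2 over suprabasal cells of 0.22 ± 0.06 log2 turned to -0.93 ± 0.07 per cell and to -0.10 ± 0.07 with TMM scaling over the 12 sums. T cell-like cells had more Lats2 than any of these, 94.0 to 113 CPM.

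**Figure D1:**
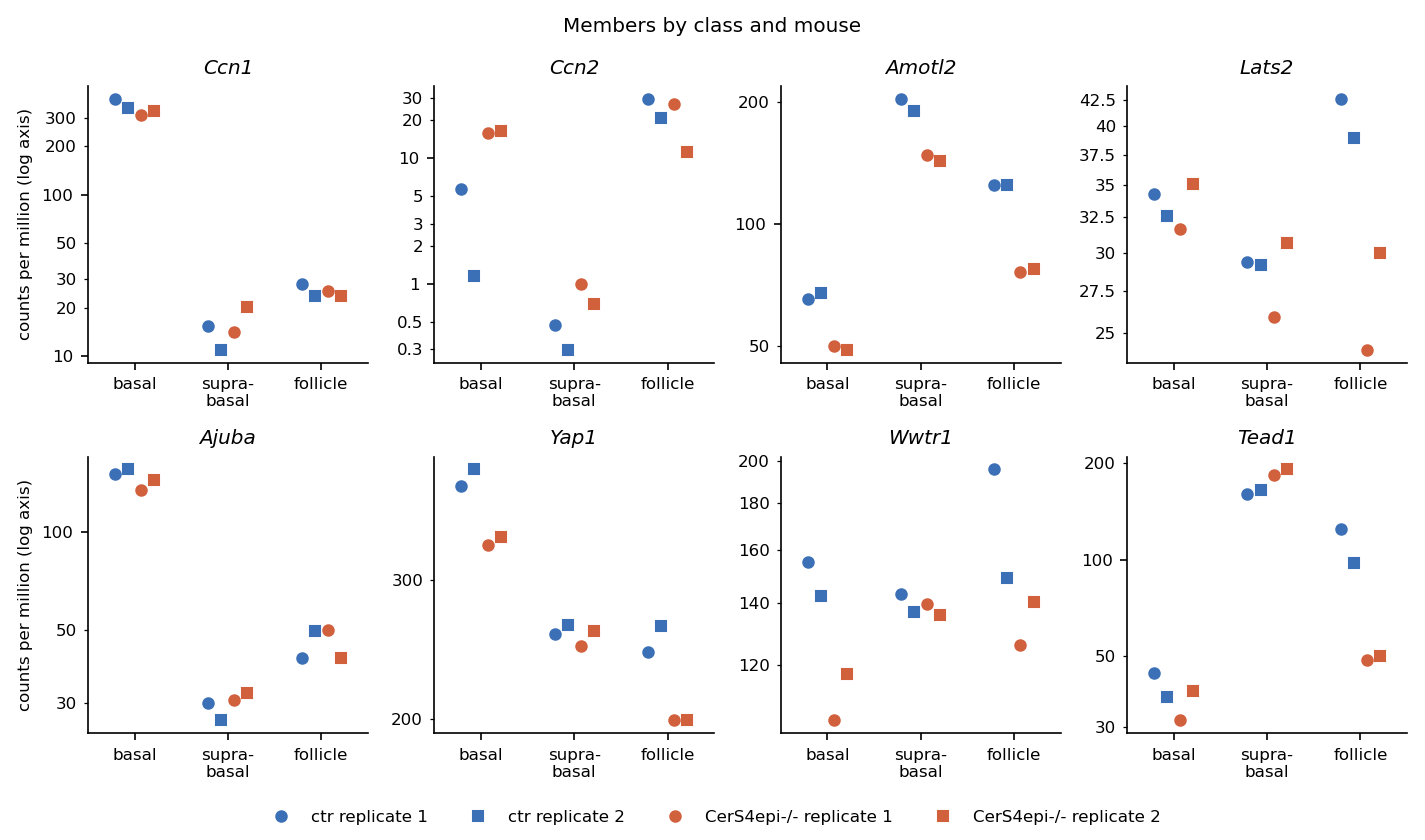
Level of each member (CPM, log axis with its own range in each panel) in the summed counts of IFE basal-like, IFE suprabasal-like and hair follicle-like cells; each point is 1 mouse, circles are replicate 1 and squares replicate 2, blue ctr and orange CerS4epi-/-. Ccn1 and Ajuba are highest in basal cells, Amotl2 and Tead1 in suprabasal cells, and in follicle cells the Tead1 points of the 2 CerS4epi-/- mice (48.5 and 49.8 CPM) sit apart from those of the ctr mice (125 and 97.5 CPM).

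These patterns were compared over the 12 sums of 3 classes in 4 mice, whose spread comes mainly from the classes, so the correlations describe class patterns and carry no test. Ccn1 and Ajuba ran together (r = 0.99), as did Amotl2 and Tead1 (r = 0.96), and these pairs were opposed (r = -0.91 for Amotl2 with Ajuba). Yap1 followed neither Tead1 (r = -0.15) nor Amotl2 (r = -0.19). The genes closest to Ccn1 were Top2a, Aida and Cblb (r = 0.995 to 0.996), to Ajuba Cenpa, Maz and F2r (0.995 to 0.997) and to Amotl2 Kpna4, Dynlt3 and Tspan8 (0.993 to 0.994). For Tead1 they were E130310I04Rik, Lnx2 and Slc52a3 (0.990 to 0.992), and for Yap1 Ogfrl1, Il12rb2 and Gas2l3 (0.976 to 0.980). For Wwtr1 the nearest included the angiomotin family gene Amotl1 (0.915) after Vax2os and Gm50252 (0.919 and 0.916). The nearest genes to Lats2 reached only 0.833 to 0.856 (Gm35721, Psmg3 and Ipp), and Ccn2 had too few counts for this comparison.

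For the genotype, each mouse counted as 1 replicate, and the sums of its cells in a class were tested with the edgeR quasi-likelihood test with Benjamini-Hochberg adjustment over all genes. Of the 8 members, 3 passed an adjusted p of 0.05 in IFE basal-like cells, where 6.58% of 13185 genes tested did. In IFE suprabasal-like cells 1 member passed, with 11.2% of 13905 genes, and in hair follicle-like cells 3 passed, with 15.6% of 11830 genes. Amotl2 was the member that fell in each of the 3 classes. The log2 fold changes below are CerS4epi-/- over ctr with their standard errors (n = 2 mice per genotype). The p-values set them against the spread between mice, which the fit estimates for each gene partly from all genes tested.

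Amotl2 fell in IFE basal-like cells by 0.37 ± 0.08 log2 (adjusted p = 0.036, edgeR), in IFE suprabasal-like cells by 0.42 ± 0.07 (adjusted p = 0.0053) and in hair follicle-like cells by 0.62 ± 0.09 (adjusted p = 0.0013). In each class both CerS4epi-/- mice were below both ctr mice, a pattern that 27.3% of all genes showed in basal, 29% in suprabasal and 28.3% in follicle cells. The size of the fall did not differ detectably between follicle and basal cells (-0.25 ± 0.11, adjusted p = 0.20) or between suprabasal and basal cells (-0.04 ± 0.09, adjusted p = 0.90). By cluster it fell in suprabasal clusters 0, 2 and 9 (log2 fold changes -0.74, -0.48 and -0.43), in basal cluster 1 (-0.59) and in follicle cluster 7 (-0.85). In the outermost suprabasal cluster 11 the estimate was -0.10 ± 0.12 (adjusted p = 0.68). The suprabasal and follicle calls stood under all 15 other settings tried, whereas the basal call was lost in 7 of them, among them leaving out ctr replicate 1 (adjusted p = 0.10), ctr replicate 2 (0.18) or CerS4epi-/- replicate 2 (0.064).

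Tead1 fell in hair follicle-like cells by 1.11 ± 0.13 log2 (adjusted p = 0.00024, edgeR), from 125 and 97.5 CPM to 48.5 and 49.8 CPM. The genotype difference in follicle cells was lower than that in basal cells by 0.94 log2 (SE 0.16, adjusted p = 0.0014); in this test of follicle against basal cells 6.49% of 14526 genes passed, and 2.66% in that of suprabasal against basal cells. In basal cells the estimate was -0.16 ± 0.13 (adjusted p = 0.49) and in suprabasal cells 0.23 ± 0.06 (adjusted p = 0.053), the latter with both CerS4epi-/- mice above both ctr mice, as for 29% of all genes. The make-up of the follicle class differed between genotypes. Cluster 12 (2310046K23Rik, Krt17, Sprr1a), where Tead1 was highest (209 to 328 CPM), made up 20.6% and 18.0% of follicle cells in ctr and 9.97% and 8.97% in CerS4epi-/- mice. With cluster shares made equal over the mice, which was added with the clusters already known, the fall was 0.56 ± 0.11 (adjusted p = 0.0061). Within clusters Tead1 fell in cluster 6 (-1.13 ± 0.25 log2, adjusted p = 0.0053) from 66.2 and 42.9 to 22.4 and 23.0 CPM, and in cluster 7 (-0.99 ± 0.15, adjusted p = 0.0039) from 53.1 and 54.3 to 24.2 and 28.9 CPM. In cluster 12 the estimate was -0.40 ± 0.14 (adjusted p = 0.15). In suprabasal cluster 2, which holds 44.9% of the Tead1 counts, Tead1 rose by 0.33 ± 0.07 (adjusted p = 0.018), from 365 and 346 to 428 and 431 CPM.

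Lats2, the kinase gene, fell in hair follicle-like cells by 0.53 ± 0.15 log2 (adjusted p = 0.032, edgeR), from 42.6 and 38.9 CPM to 24.03 and 30.0 CPM. This call was lost in 8 of 15 other settings, with adjusted p between 0.0055 and 0.21 over all of them, and without ctr replicate 1 (0.16) or CerS4epi-/- replicate 1 (0.17). In basal and suprabasal cells the estimates were 0.05 ± 0.09 and -0.04 ± 0.09 (adjusted p = 0.79 and 0.84), and the difference between follicle and basal cells was -0.58 ± 0.14 (adjusted p = 0.017). That difference was lost without ctr replicate 1 (adjusted p = 0.19), ctr replicate 2 (0.10) or CerS4epi-/- replicate 1 (0.13).

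Of the coactivators, Wwtr1 fell in IFE basal-like cells by 0.37 ± 0.08 log2 (adjusted p = 0.043, edgeR), from 155 and 143 to 104 and 117 CPM, a call that 6 of 15 other settings did not keep. Those 6 included leaving out either ctr mouse (adjusted p = 0.19 and 0.094) or CerS4epi-/- replicate 1 (0.080). By cluster it fell in basal clusters 3 and 5 (log2 fold change -0.43 in each) and in suprabasal cluster 0 (-0.56). In suprabasal cells as a whole the estimate was -0.00 ± 0.06 (adjusted p = 0.98) and in follicle cells -0.31 ± 0.13 (adjusted p = 0.15), where leaving out ctr replicate 2 gave -0.50 (adjusted p = 0.013). Yap1 did not pass in any class. Its estimates were -0.21 ± 0.07 in basal (adjusted p = 0.11), -0.02 ± 0.06 in suprabasal (0.87) and -0.27 ± 0.09 in follicle cells (0.074), and both CerS4epi-/- mice lay below both ctr mice in basal and follicle cells, as for 27.3% and 28.3% of all genes there.

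Ccn2 rose in IFE basal-like cells by 2.32 ± 0.45 log2 (adjusted p = 0.026, edgeR), from 5.64 and 1.15 CPM in the ctr mice to 15.8 and 16.6 CPM in the CerS4epi-/- mice. These are low counts, 70 and 15 against 241 and 179, and the 2 ctr mice differed from each other beyond their counting intervals (4.40 to 7.13 and 0.646 to 1.90 CPM). Without ctr replicate 1 the rise was 3.85 and without ctr replicate 2 it was 1.58 (adjusted p = 0.00020 and 0.0056, edgeR). In DESeq2 the same change had an adjusted p of 0.22. Cluster 3, which holds most Ccn2 of the basal class, made up 16.4% and 12% of basal cells in ctr and 27.7% and 30.5% in CerS4epi-/- mice. At the same cluster shares in every mouse the rise was 1.63 ± 0.44 and no longer passed (adjusted p = 0.081). Within clusters it passed in cluster 3 (1.48 ± 0.32, adjusted p = 0.0087, edgeR), at 36.6 and 6.82 against 66.4 and 60.3 CPM, and in cluster 5 (2.75 ± 0.57, adjusted p = 0.022), at 1 to 23 counts per mouse. The cluster 5 levels, 0.13 to 3.0 CPM, lie within the 0 to 22.8 CPM of T cell-like cells and cannot be told from free RNA.

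In IFE suprabasal-like cells, with 8 to 23 counts per mouse, the Ccn2 estimate was 1.201 ± 0.42 (adjusted p = 0.11, edgeR). The suprabasal levels, 0.297 to 0.996 CPM, also lie within the range of T cell-like cells and cannot be told from free RNA. In hair follicle-like cells Ccn2 stood at 29.8 and 20.7 CPM in ctr and 27.1 and 11.3 CPM in CerS4epi-/- mice (-0.32 ± 0.34, adjusted p = 0.58, edgeR), and its genotype difference there was lower than in basal cells by 2.66 log2 (SE 0.42, adjusted p = 0.00087). Without ctr replicate 2 that difference was -2.14 (adjusted p = 0.052). Leaving out CerS4epi-/- replicate 1, the follicle value itself was -1.10 (adjusted p = 0.0014). At the same cluster shares in every mouse the follicle value was -0.96 ± 0.33 (adjusted p = 0.078). In cluster 6, where Ccn2 is expressed, it fell by 1.23 ± 0.33 (adjusted p = 0.018), from 150 and 94.3 to 68.8 and 25.6 CPM, while cluster 6 itself grew from 19.2% and 17.7% to 28.9% and 33.9% of follicle cells. Ccn1 also fell in cluster 6, by 1.62 ± 0.34 (adjusted p = 0.0032), from 35.9 and 30.9 to 12.2 and 7.32 CPM, where T cell-like cells had 3.41 to 190 CPM. The make-up inside cluster 6 was not held equal for these values.

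Over whole classes Ccn1 did not pass, at -0.14 ± 0.08 in basal (adjusted p = 0.33, edgeR), 0.39 ± 0.19 in suprabasal (0.22) and -0.01 ± 0.15 in follicle cells (0.97). The suprabasal cluster 2 was an exception (0.94 ± 0.24, adjusted p = 0.037), at 8.6 and 5.8 against 11.9 and 14.5 CPM. Those levels lie within the 3.41 to 190 CPM of T cell-like cells and cannot be told from free RNA. Ajuba did not pass in any class or cluster, with class estimates of -0.08 ± 0.07, 0.17 ± 0.09 and 0.09 ± 0.14. In the 11 clusters tested, the share of all genes that passed was 3.35% in cluster 0, 3.38% in cluster 1, 9.80% in cluster 2, 6.20% in cluster 3, 4.10% in cluster 5, 17.0% in cluster 6 and 5.84% in cluster 7. It was 7.84% in cluster 9, 0.991% in cluster 10, 5.17% in cluster 11 and 3.34% in cluster 12. Of the members, 3 passed in cluster 6 (Ccn1, Ccn2 and Tead1), 3 in cluster 2 (Ccn1, Amotl2 and Tead1), 2 each in clusters 0, 3, 5 and 7, 1 each in clusters 1 and 9 and 0 in clusters 10, 11 and 12. Ccn2 had enough counts for the test in clusters 3, 5 and 6.

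**Figure D2:**
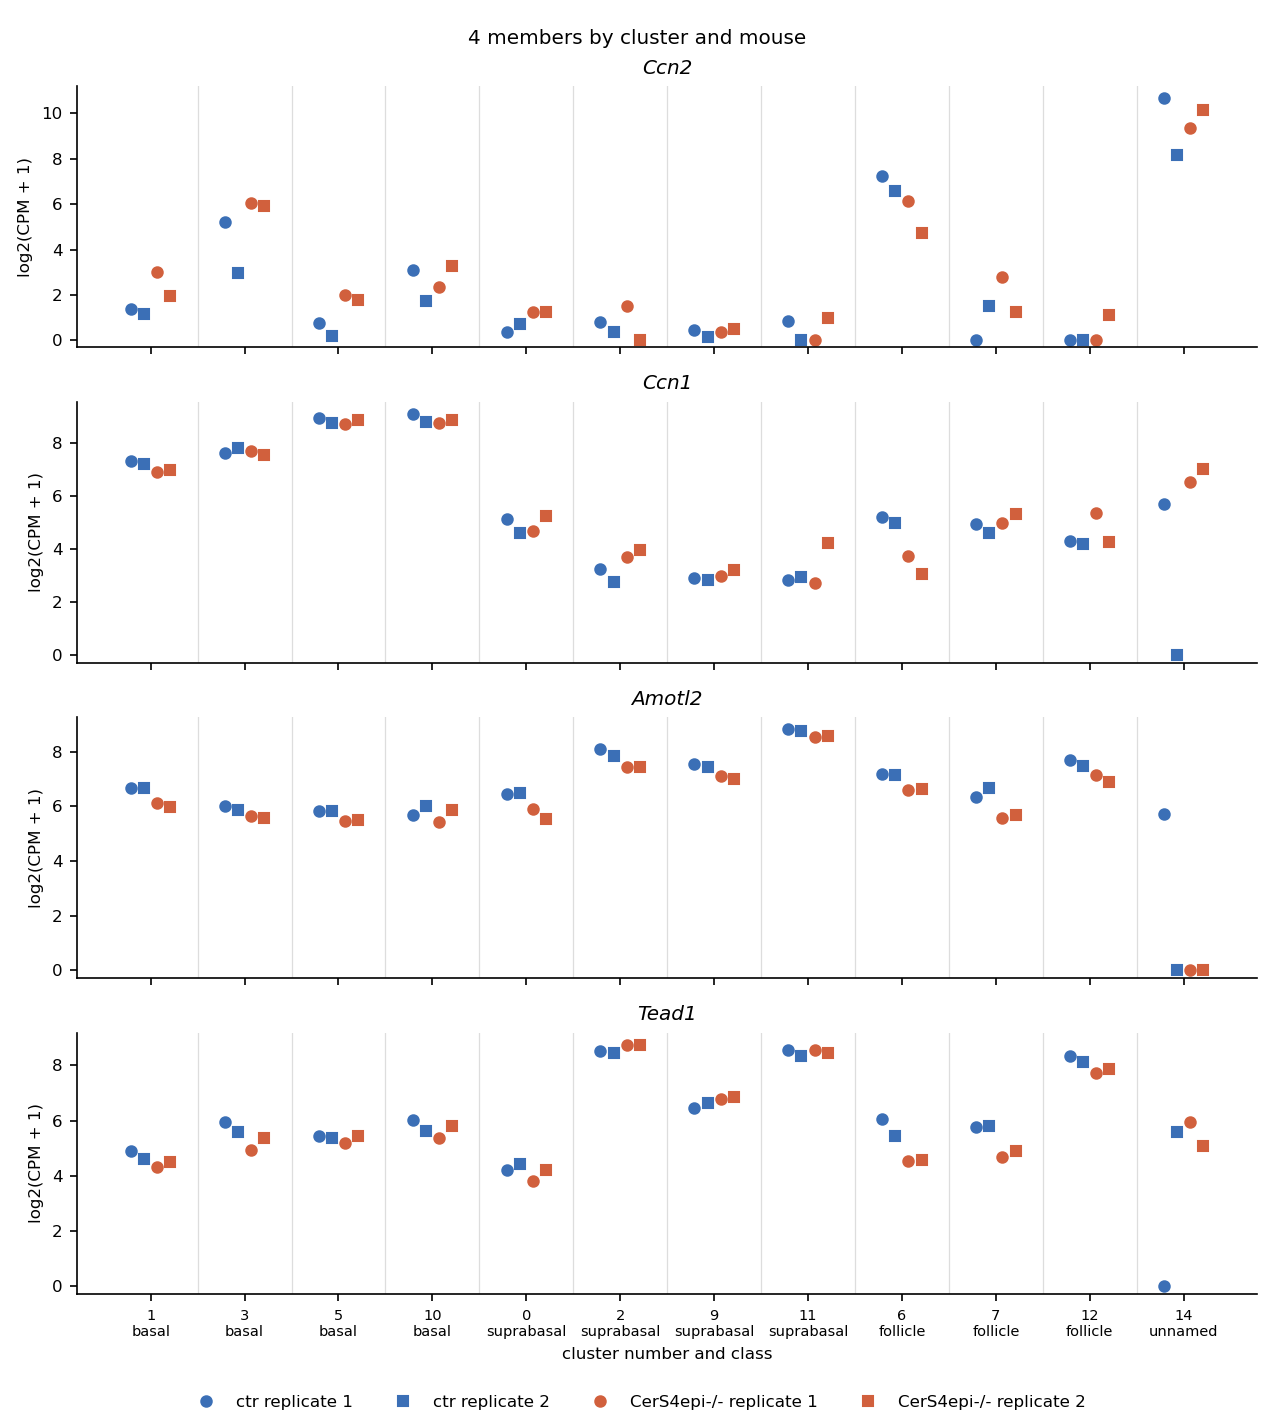
Level of Ccn2, Ccn1, Amotl2 and Tead1 in each keratinocyte cluster and in the unnamed cluster 14, as log2(CPM + 1); each point is 1 mouse, with symbols and colours as for the classes. Ccn2 stands out in clusters 3, 6 and 14, and in cluster 6 both CerS4epi-/- mice (68.8 and 25.6 CPM) lie below both ctr mice (150 and 94.3 CPM), while in cluster 3 they lie above.

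**Figure D3:**
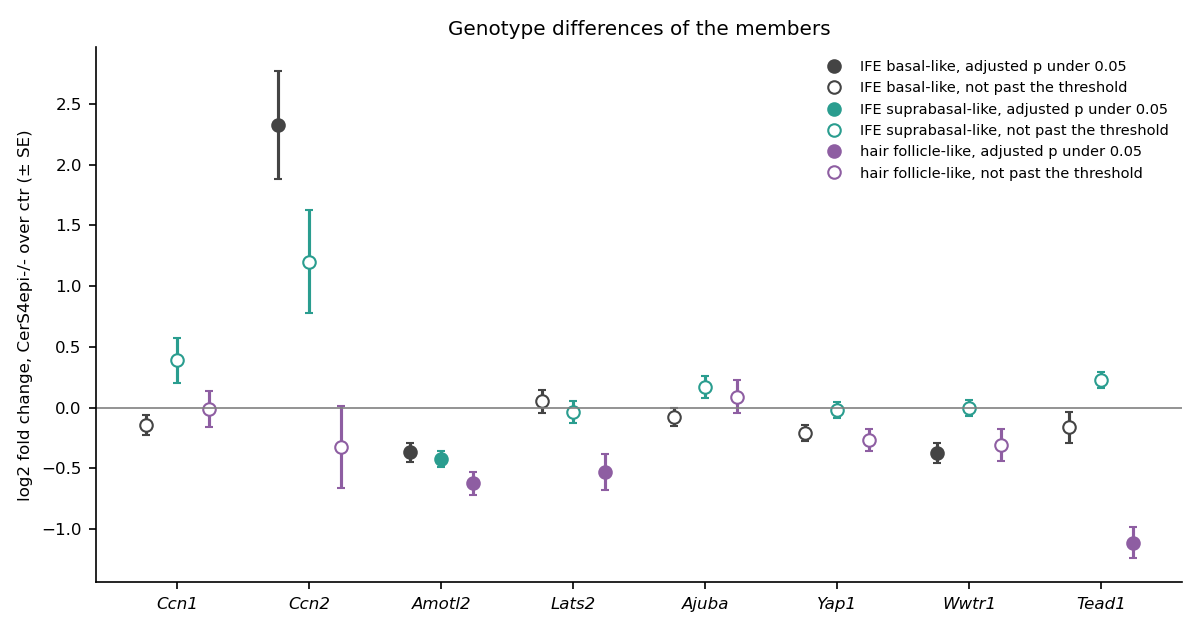
Log2 fold change of each member, CerS4epi-/- over ctr, in the 3 classes, from the edgeR fit (bars ± SE, n = 2 mice per genotype); filled points have an adjusted p under 0.05. Amotl2 lies below 0 in all 3 classes, Tead1 at -1.11 in follicle cells and Ccn2 at 2.32 in basal cells.

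The genes around the members were then described from 3 lists. CPM values of these list genes carry the TMM scaling of their class, unlike the CPM of the members. The first list held Hippo kinases and upstream regulators (STK3, STK4, SAV1, LATS1, NF2 and others). Of 16 listed and 14 tested in each class, 0 passed in basal cells, where 6.58% of all genes did. In suprabasal cells 1 rose (Taok1, 0.39 ± 0.06, adjusted p = 0.0056, edgeR), where 11.2% of all genes passed. In follicle cells 1 fell (Taok3, by 0.63 ± 0.17, adjusted p = 0.032), where 15.6% passed. With 14 genes, these counts do not set the list apart from all genes. The median log2 fold changes of the list, -0.03, -0.02 and 0.02, were close to the medians of all genes (between -0.003 and 0.004).

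Other TEAD factors and partners of YAP and TAZ made up the second list. Of 9 such genes tested in follicle cells, 5 fell, 0 rose and 4 did not pass, with a median of -0.45, where 6.75% of all genes fell. Tead2 went from 14.8 and 21.1 to 6.99 and 5.05 CPM (-1.54 ± 0.25, adjusted p = 0.0021, edgeR) and Tead4 from 39.1 and 33.9 to 19.9 and 16.5 CPM (-1.003 ± 0.15, adjusted p = 0.0013). Vgll3, a TEAD cofactor, fell by 0.64 ± 0.11 (adjusted p = 0.0022), the angiomotin family gene Amotl1 by 0.45 ± 0.10 (adjusted p = 0.0092) and the Ajuba family gene Wtip by 0.64 ± 0.14 (adjusted p = 0.0088). Amotl1 here and Tead3 were singled out after their values were seen. Tead3 was at 172 and 160 against 139 and 140 CPM (-0.25 ± 0.09, adjusted p = 0.094). The others that did not pass were Limd1 (-0.28 ± 0.16, adjusted p = 0.29), Amot (-0.31 ± 0.44, 0.70) and Vgll4 (0.13 ± 0.13, 0.55). In basal cells 1 of 8 passed (Amotl1, a fall of 0.35 ± 0.07, adjusted p = 0.030), and in suprabasal cells 0 of 9 passed, while Tead4 passed there as higher in 5 of 15 other settings, 1 of which also called Vgll3.

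The follicle count also moved with the make-up of the class. At the same cluster shares in every mouse 3 of the 9 fell (Tead2, Amotl1 and Wtip), and Tead4 and Vgll3 had estimates of -0.32 and -0.23 (adjusted p = 0.17 and 0.14). With at most 10% mitochondrial counts per cell, 3 of 8 tested fell. The 6.75% of all genes belongs to the main fit and not to either of these settings. Within cluster 7 Tead2 (log2 fold change -2.13), Vgll3 (-0.80) and Amotl1 (-0.51) fell, and within cluster 6 Tead2 (-2.01) and Limd1 (-1.04), the latter another Ajuba family gene named after its values were seen. Outside the follicle class, Amotl1 (-0.685) and Limd1 (-0.492) fell and Vgll4 (0.649) rose in basal cluster 3. Vgll3 rose in basal cluster 5 (0.667), and Tead4 (1.364) and Amotl1 (0.324) rose in suprabasal cluster 9.

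**Figure D4:**
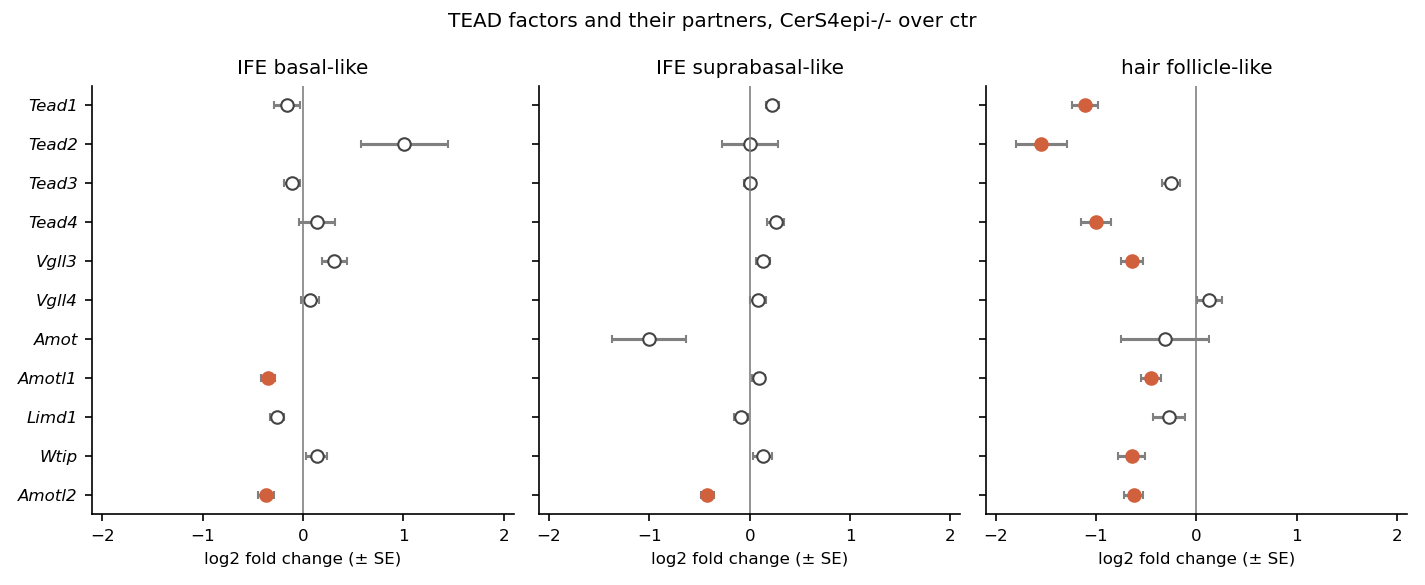
Log2 fold change, CerS4epi-/- over ctr, of Tead1 and Amotl2 with the other TEAD factors and YAP/TAZ partners in the 3 classes (bars ± SE, edgeR, n = 2 mice per genotype); filled orange points have an adjusted p under 0.05, and Amot was not tested in basal cells. In follicle cells 5 of the 9 partners passed as lower, where 6.75% of all genes did. At equal cluster shares 3 of the 9 did, a setting to which the 6.75% does not belong.

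The other YAP/TAZ targets, 20 genes from general knowledge listed with earlier results of these data known, were called in both directions. In basal cells 2 of 18 rose and 3 fell, where 525 and 343 of all 13185 genes did. In suprabasal cells 4 of 17 rose and 3 fell, where 946 and 607 of 13905 genes did. In follicle cells 5 of 18 rose and 4 fell, where 1045 and 798 of 11830 genes did. Igfbp3, a secreted binding protein of insulin-like growth factors, was lower in each class, with 427 and 362 against 99.0 and 61.6 CPM in basal cells (-2.29 ± 0.20, adjusted p = 0.0029, edgeR) and falls of 2.55 and 2.74 log2 in suprabasal and follicle cells. Nt5e, the ecto-5′-nucleotidase CD73, fell in suprabasal cells by 1.21 ± 0.09 log2. In the same cells Arhgef17 rose by 1.80 ± 0.24 (adjusted p = 0.0025, edgeR) and Fjx1 by 1.68 ± 0.35 (adjusted p = 0.018). In follicle cells F3, the coagulation tissue factor, fell from 62.8 and 76.5 to 17.7 and 20.9 CPM (-1.85 ± 0.14, adjusted p = 1.9e-05). Fjx1 rose there by 2.11 ± 0.33 (adjusted p = 0.0016, edgeR). Fstl1, also among the 5 that rose, was at 0 in both ctr mice and at 2.96 and 4.2 CPM in the CerS4epi-/- mice. It passed the filter on low counts only through the CerS4epi-/- mice, so its call is no separate result. In basal cells Arhgef17 (1.18 ± 0.17) and Rbms3 (0.90 ± 0.14) rose and Tgfb2 fell by 1.58 ± 0.23. These counts also moved with the make-up of the classes. At the same cluster shares in every mouse, basal Arhgef17 was 0.79 (adjusted p = 0.032, edgeR) and Tgfb2 -1.46 (0.014). Rbms3 (0.48, adjusted p = 0.069) and Nuak2 (0.059) no longer passed there, nor did Axl in suprabasal (0.080) and Myof in follicle cells (0.055), while Nt5e passed as lower in basal cells (0.038). The medians of the list were 0.04, 0.28 and -0.02 in basal, suprabasal and follicle cells.

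Other signals that moved with the genotype are given here, since Ccn1 and Ccn2 are themselves quickly induced. The median share of mitochondrial counts per cell was 9.67% and 9.55% in basal cells of the ctr mice against 11.1% and 10.9% in the CerS4epi-/- mice, and 7.21% and 6.8% against 9.69% and 9.3% in follicle cells. For their mitochondrial share, 68 and 91 barcodes were removed in ctr and 363 and 316 in CerS4epi-/- mice. Of 17 immediate early genes, which respond to tissue digestion, 6 rose in basal and 11 in suprabasal cells with 0 falling (medians 0.19 and 0.60), and 2 rose and 1 fell in follicle cells. Of all genes tested, 525 of 13185 rose and 343 fell in basal cells, and 946 of 13905 rose and 607 fell in suprabasal cells. In follicle cells 1045 of 11830 rose and 798 fell, and the count there does not set these 17 genes apart. Those with the largest changes in basal cells were Ier3 (1.21 ± 0.21), Egr1 (0.59 ± 0.11), Dusp1 (0.46 ± 0.07) and Fos (0.46 ± 0.07), and in suprabasal cells Ier3 (1.52 ± 0.14), Socs3 (0.87 ± 0.09), Egr1 (0.82 ± 0.14) and Dusp1 (0.81 ± 0.08). In follicle cells Ier3 (1.11 ± 0.15) and Socs3 (0.67 ± 0.19) rose and Nr4a1 (-0.56 ± 0.13) fell. Of 7 heat shock genes, 2 rose in basal cells (Hspa1a by 0.44 and Hspa1b by 0.30 log2), and Hsp90aa1 fell in each class, with Hsph1 besides in follicle cells (log2 fold change -0.70). The same counts over all genes stand beside those of these 7. The summed level of 7 fibroblast markers was 35.0 to 78.7 CPM in basal sums and 1.90 to 11.1 CPM in follicle sums, and in suprabasal sums 64.6 CPM in CerS4epi-/- replicate 2 against 1.48 to 8.60 CPM in the other mice. That of 5 endothelial markers was 4.70 to 15.7 CPM over the 3 classes. Smooth muscle and pericyte markers summed to 13.8 and 38.2 CPM in follicle cells of the CerS4epi-/- mice against 1.09 and 1.07 CPM in ctr, nearly all of it Acta2. The part of these signals in the values of the members was not tested.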

How the data were processed

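Per the submitters' processing notes and the study's methods, the authors trimmed reads with fastp 0.23.2 and counted them with STARsolo (STAR 2.7.10a) on GRCm39, introns included and reads of several genes divided by expectation maximization. The authors deposited these unfiltered expected counts per gene and barcode, of which 4.55% to 4.81% of entries are not whole. Reads shared with near-identical genes are therefore estimates.

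Cells were barcodes that reached 1200 counts and stayed within 20% mitochondrial reads. Scrublet marked 2 of 34150 cells, which is too few to have worked, so no doublets were removed and some are present. Counts were scaled with scran 1.30.0, and 3000 variable genes, without 70 listed genes that include the members, gave 100 principal components, Harmony alignment, 30 neighbours and Leiden clusters at resolution 0.8 (scanpy 1.11.5). Clusters took the name of the marker list with the highest score. The limits for naming were set after the clusters had been seen.

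Counts were summed per mouse and class, rounded and tested with edgeR 4.0.16 (quasi-likelihood, TMM scaling, filterByExpr, Benjamini-Hochberg threshold 0.05). Whether the genotype difference was the same in 2 classes was tested on 12 sums with the mouse as a block. Level differences between classes were described and not tested. Class levels are log2 ratios within a mouse with 0.5 counts added. Replicates are mice as labelled. Exact two-sided permutation of 2 against 2 mice cannot give p below 0.333 and was not used. Intervals are exact Poisson at 95% and cover counting error. The edgeR step was tested on simulated data with 200 changed genes.

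Alternatives were DESeq2 1.42.0, its size factors, no filter on low counts, a replicate block, each mouse left out, cell thresholds, clustering choices and equal cell numbers. The cluster tests and the setting with the same cluster shares in every mouse were added after seeing the data. Named were all members, per list and class the called genes up to the 4 largest, and the 3 genes most like each member. The members and lists were chosen with earlier results of these data known.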

Additional observations from a re-analysis of the deposited data

Results flagged for a closer look

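The genotype difference of 3 members was not the same in hair follicle-like and IFE basal-like cells by the test of the difference itself (edgeR quasi-likelihood test on 12 sums, Benjamini-Hochberg adjustment, n = 2 mice per genotype). For Ccn2 the follicle value was lower than the basal value by 2.66 log2 (-2.66 ± 0.42, adjusted p = 0.00087), with adjusted p between 1.2e-06 and 0.052 over the settings tried and the highest without ctr replicate 2. For Tead1 the difference was -0.94 ± 0.16 (adjusted p = 0.0014), and it passed in each of the 10 other settings tried. Equal cluster shares were not among these settings, and under them the separate Tead1 values were -0.56 in follicle and -0.18 in basal cells, with their difference not tested. For Lats2 it was -0.58 ± 0.14 (adjusted p = 0.017), and it was lost without ctr replicate 1, without ctr replicate 2, without CerS4epi-/- replicate 1 and without Harmony alignment (adjusted p = 0.070).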

How the results depend on the processing

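Of 360 member fold changes under other settings, 302 kept direction and side of the threshold, 23 lost the call, 9 gained it and 26 changed sign, none of the last among the 7 called values. Amotl2 in suprabasal and follicle cells and Tead1 in follicle cells were called in all 15 settings.

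In basal cells the 868 genes called became 2043 with no filter on low counts, 483 at no more than 10% mitochondrial counts and 344 to 1372 with a mouse left out. The 3 members called there became 1 with DESeq2, at 10% mitochondrial counts or with equal cell numbers, and 1 to 2 with a mouse left out. In suprabasal cells 1553 genes became 2566 without the filter and 856 to 1894 with a mouse left out, and the 1 member became 3 without the filter and 2 at 10% mitochondrial counts, without Harmony or with equal cell numbers. In follicle cells 1843 genes became 951 with DESeq2 and 1186 to 1699 with a mouse left out. Genes differing between follicle and basal cells went from 943 to 313 to 908 with a mouse left out, and those between suprabasal and basal cells from 386 to 139 at 10% mitochondrial counts and 26 to 348 with a mouse left out. The causes were not tested.

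Replicate numbers showed no sign of pairing the mice (correlation of deviations 0.05, 0.06 and -0.04 in basal, suprabasal and follicle cells). With 2 mice per genotype, these values cannot settle whether the mice were paired. With the replicate block, 3048 genes and 2 members were called in suprabasal cells, Tead1 at 0.23 (adjusted p = 0.0095, edgeR).

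Signs turned for these uncalled log2 values. With a mouse left out, Lats2 ran from -0.027 to 0.121 in basal and from -0.142 to 0.069 in suprabasal cells, Wwtr1 from -0.041 to 0.030 and Yap1 from -0.050 to 0.006 in suprabasal cells, and in follicle cells Ccn1 from -0.129 to 0.142, Ccn2 from -1.096 (called without CerS4epi-/- replicate 1) to 0.157 and Ajuba from -0.050 to 0.227. Without Harmony, Lats2 was -0.008 in basal and 0.008 in suprabasal cells, Wwtr1 0.088 in suprabasal and Ccn1 0.129 in follicle cells. At the same cluster shares, Lats2 was -0.009 in basal cells and Ccn1 0.036 and Ajuba -0.032 in follicle cells. At 10% mitochondrial counts, Lats2 was 0.038 and Wwtr1 0.109 in suprabasal cells and Ccn2 0.005 in follicle cells. Without the 5% of cells with the highest Scrublet scores, Wwtr1 was 0.012 in suprabasal and Ccn1 0.011 in follicle cells. Wwtr1 was 0.031 in suprabasal cells with equal cell numbers, and Ccn1 in follicle cells was 0.003 without the filter and 0.113 at Leiden resolution 1.2.

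Depth limits Ccn2 most, with 8 to 23 counts per mouse in suprabasal cells, and 2 mice per genotype limit every test.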
